A study of Rattus norvegicus with 18 samples.

Results

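The genes described here encode RNA-binding proteins that regulate splicing and related steps of RNA processing. They were chosen by symbol, from probe sets annotated with a single gene, and comprise the SR proteins (Srsf), the hnRNPs, the STAR proteins Qki and Khdrbs, the muscleblind (Mbnl), Ptbp and Nova families, Celf proteins other than Celf4, Rbfox1, Rbfox2, Elavl1, Elavl2, the U2 snRNP subunits Sf3a and Sf3b, Tra2a, Tra2b and Bclaf1. Their relatives Celf4, Elavl3, Elavl4 and Rbfox3 are counted with other RNA-binding proteins at the end. In all 59 such genes had 121 probe sets on the arrays. Of these, 55 genes with 108 probe sets passed a filter on low values and were tested, among 11982 genes and 24234 probe sets tested in the series.

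Expression was measured with arrays in O4+ and A2B5+ cells isolated by flow sorting from brains of male rats aged 7 postnatal days. The 4 O4+ and 5 A2B5+ replicates each came from a litter of 10 pups, pooled, and each replicate was hybridised to 2 types of array, A and B; no treatment or genotype is given for either population. The O4 antibody recognises sulfatide and labels cells from the late progenitor stage onwards, and the A2B5 antibody recognises gangliosides on glial progenitors and on some neurons. The comparison asks which transcripts differ between the sorted populations. All 6 tested oligodendrocyte markers were higher in O4+ cells and all 4 tested progenitor markers were lower, with log2 differences for Mbp of 4.48 and for Pdgfra of -2.29.

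Splicing regulators bind short sequence elements in pre-mRNA and thereby promote or repress the use of nearby exons. SR proteins mostly favour exon inclusion and hnRNPs often oppose it, while Mbnl, Celf, Rbfox, Elavl and Nova proteins set exon choice in particular tissues and stages, the last families largely in neurons. In oligodendrocytes, QKI and hnRNP A2/B1 are known for the splicing, stability and transport of myelin mRNAs, among them Mbp.

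The deposited values are linear ratios per probe set, in which most probe sets have a median of 1 over the 9 arrays of a type. They compare arrays for a given probe set and hold no level that could be compared between genes. For a gene, log2 ratios were averaged over its tested probe sets on array A or, where it had none there, on array B. Differences are O4+ minus A2B5+ on the log2 scale, with standard errors taken from limma over all genes, and a difference was called at a Benjamini-Hochberg adjusted p under 0.05 over all genes. Where ratios are given for a gene with several probe sets, they are the geometric mean of those probe sets, and replicates are listed in the order of their numbers. In sorted populations a lower signal can come from fewer cells of a type or from less RNA per cell, and these cannot be told apart.

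Most splicing regulators were not called different between the populations, and 4 of the 5 differences of 1 or more were in the Mbnl, Rbfox and Elavl families. Of 55 tested genes, 5 were called higher in O4+ cells (9.09%, where 28.8% of all genes were called higher) and 8 lower (14.5%, against 17.8% of all genes). The remaining 42 were not called, of which 2, Ptbp1 and Srsf10, had an unadjusted p under 0.05. The higher genes were Mbnl2, Khdrbs2, Srsf2, Sf3b6 and Khdrbs3, and the lower genes were Elavl2, Rbfox2, Mbnl1, Srsf3, Rbfox1, Celf2, Srsf4 and Celf1. The median difference was -0.08 over the splicing regulators and 0.14 over all genes, and 5 of 55 (9.09%) differed by 1 or more in either direction, against 21.5% of all genes. Ratios of the populations did not overlap for 12 of 55 genes (21.8%, against 41.1% of all genes). The count of higher genes was the least stable: it was 3 without O4+ replicate 1, 3 or 4 or A2B5+ replicate 2, 4 or 5, and 8 without O4+ replicate 2, while the count of lower genes was 5 without O4+ replicate 1. With each array centred on its median, 2 genes were higher and 11 lower, against 18.7% and 20.4% of all genes. The median difference was then -0.22 over the splicing regulators and 0.03 over all genes.

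**Figure D1:**
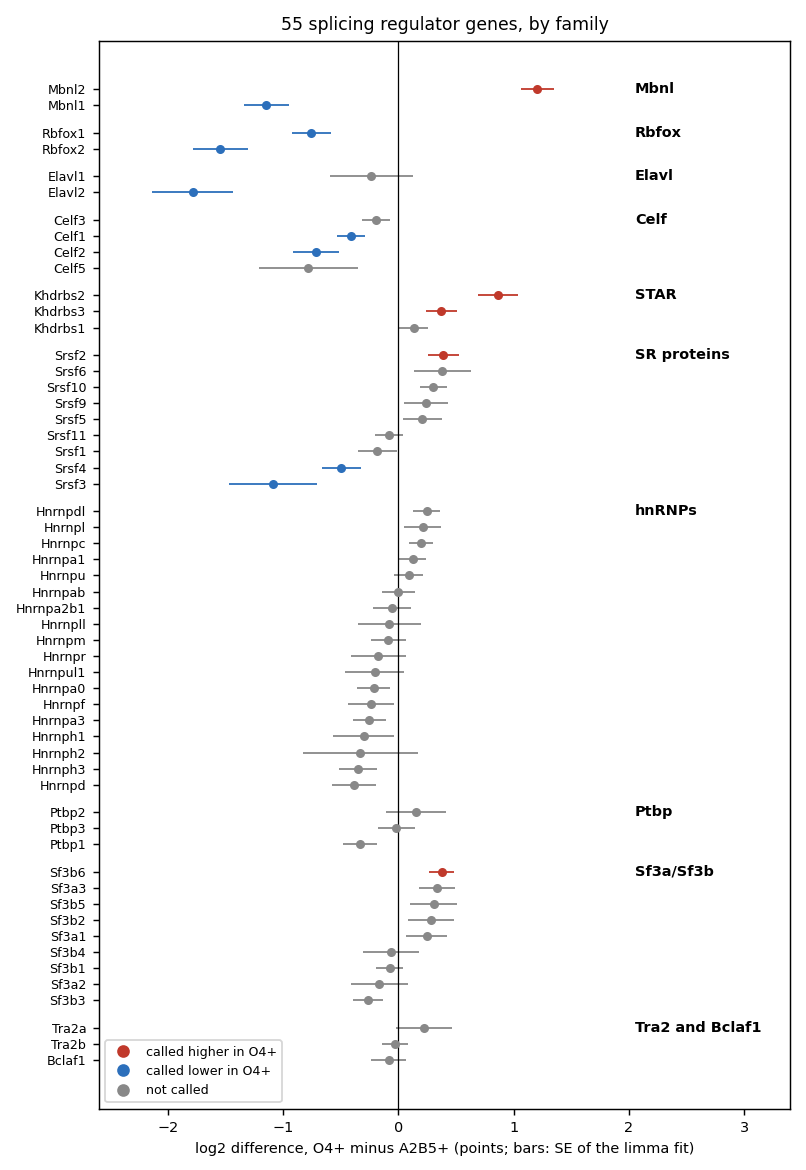
Log2 difference, O4+ minus A2B5+, of the 55 tested splicing regulator genes, grouped by family, with bars for the limma standard error and the call as colour. Differences of 1 or more lie in the Mbnl, Rbfox and Elavl families and at Srsf3, while the 18 hnRNP genes lie between -0.38 and 0.24.

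The muscleblind genes Mbnl1 and Mbnl2 changed in opposite directions. Their proteins promote adult splice forms and are best known for their loss in myotonic dystrophy. Mbnl2 had ratios of 2.34, 1.87, 1.67 and 2.45 in O4+ cells, against 0.827, 0.869, 0.941, 0.973 and 0.857 in A2B5+ cells. Every O4+ replicate lay above every A2B5+ replicate. Mbnl2 rose by 1.205 ± 0.14, or 2.31-fold (limma adjusted p = 1.26e-04), and its 3 probe sets on array A rose by 1.29, 1.185 and 1.14. Mbnl1 had ratios of 0.709, 0.731, 0.485 and 0.683 in O4+ cells, against 1.00, 1.63, 1.29, 1.72 and 1.63 in A2B5+ cells. Here every O4+ replicate lay below every A2B5+ replicate, and O4+ replicate 3 was the lowest. Mbnl1 fell by 1.15 ± 0.20, that is 2.22-fold lower in O4+ cells (adjusted p = 0.00123). Both calls were kept when each replicate was left out in turn, with an adjusted p of at most 7.31e-04 for Mbnl2 and 0.00427 for Mbnl1. With array B used before array A, Mbnl1 was not called (-0.25, adjusted p = 0.201), since 1 of its 2 probe sets there differed by 0.23.

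The windows before the annotated transcription starts of Mbnl2, Mbnl1 and Elavl2 are shown as examples of genes with called differences of over 1 in opposite directions. Rbfox2 and Srsf3 also had called differences of over 1, and their windows are not shown. They hold 250 bases upstream of the start, from RefSeq on build GRCr8, and 48 of the 55 tested genes had such a window. Mbnl2 has 2 listed starts, of which the first is shown, at chr15:103791938-103792187 on the plus strand. Mbnl1 lies at chr2:146819784-146820033 on the plus strand and Elavl2 at chr5:111202288-111202537 on the minus strand. Capitals mark matches on either strand to the GC box motif GGGCGG, the CCAAT box, the TATA box motif TATAAA or the E-box motif CAGCTG.
Mbnl2: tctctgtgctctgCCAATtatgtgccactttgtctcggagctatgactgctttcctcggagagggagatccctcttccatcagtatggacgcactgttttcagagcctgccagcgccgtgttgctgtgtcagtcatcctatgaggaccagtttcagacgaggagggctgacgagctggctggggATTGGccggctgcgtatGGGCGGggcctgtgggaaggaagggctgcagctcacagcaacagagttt
Mbnl1: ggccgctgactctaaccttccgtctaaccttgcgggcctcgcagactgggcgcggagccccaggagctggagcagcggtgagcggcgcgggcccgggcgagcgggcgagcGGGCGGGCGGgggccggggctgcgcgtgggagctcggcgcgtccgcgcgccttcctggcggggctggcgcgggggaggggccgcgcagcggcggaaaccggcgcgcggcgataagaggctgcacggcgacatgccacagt
Elavl2: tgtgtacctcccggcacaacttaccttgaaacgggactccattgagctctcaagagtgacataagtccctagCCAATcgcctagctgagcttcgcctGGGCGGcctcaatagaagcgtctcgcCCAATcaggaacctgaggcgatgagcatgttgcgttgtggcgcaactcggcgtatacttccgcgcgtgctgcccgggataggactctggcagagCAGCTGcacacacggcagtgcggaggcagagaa
The Mbnl1 window has 78.0% G or C and 40 CG dinucleotides, with 2 GC boxes that overlap each other. The Mbnl2 window has 57.2% G or C and 10 CG dinucleotides, with 1 GC box and 2 CCAAT matches, and the Elavl2 window has 18 CG dinucleotides, 1 GC box, 2 CCAAT matches and 1 E-box match. None of the 3 windows holds the TATA box motif. Over all 33469 windows of this length the median was 51.2% G or C and 5 CG dinucleotides, and the share with a match was 30.5% for the GC box, 34.0% for the CCAAT box, 12.9% for the TATA box and 12% for the E-box motif.

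Both Rbfox genes were lower in O4+ cells. Rbfox proteins bind UGCAUG elements and regulate exons of neuronal and muscle transcripts. Rbfox2, the member with the wider expression among tissues, had ratios of 0.384, 0.566, 0.659 and 0.585 in O4+ cells, against 2.096, 1.46, 1.88, 1.66 and 1.00 in A2B5+ cells. The populations did not overlap, and A2B5+ replicate 5 was the lowest of its population. Rbfox2 fell by 1.54 ± 0.23, 2.92-fold lower in O4+ cells (adjusted p = 5.99e-04). Rbfox1, known from neurons and muscle, had ratios of 0.799, 0.750, 0.802 and 0.808 in O4+ cells, against 1.90, 1.40, 1.18, 1.04 and 1.29 in A2B5+ cells. It fell by 0.76 ± 0.17 (adjusted p = 0.00531), again without overlap. Rbfox1 is the mean of 4 probe sets on array B that differed among themselves, as described below, and Rbfox2 rests on a single probe set on array A. With array B used first Rbfox2 was not called (-0.01, adjusted p = 0.959), and with no filter Rbfox1 turned to 0.23 (adjusted p = 0.0558), the value of an array A probe set below the filter.

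Elavl2 was lower in O4+ cells and Elavl1 was not called. Elavl2 (HuB) is a neuronal RNA-binding protein that stabilises AU-rich mRNAs, and Elavl1 (HuR) is its counterpart in most cell types. Elavl2 had ratios of 0.597, 0.509, 0.366 and 0.832 in O4+ cells, against 1.55, 1.54, 3.55, 2.63 and 1.11 in A2B5+ cells. It fell by 1.785 ± 0.35, 3.45-fold lower (adjusted p = 0.00274), without overlap, and A2B5+ replicates 3 and 4 were the highest. Elavl1 on array A differed by -0.23 ± 0.36 (adjusted p = 0.612). Its A2B5+ ratios spread over 1.38, 1.23, 0.586, 0.593 and 2.02, while those of O4+ cells were 0.759, 1.03, 1.00 and 0.769.

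In the Celf family, Celf1 and Celf2 were lower in O4+ cells and Celf3 and Celf5 were not called. Celf proteins act on exons and on mRNA decay, and Celf1 and Celf2 are known to oppose muscleblind proteins at shared exons in heart and muscle. Celf2 had ratios of 0.873, 0.577, 0.763 and 0.828 in O4+ cells, against 1.31, 1.01, 1.52, 1.53 and 0.920 in A2B5+ cells, and fell by 0.71 ± 0.20 (adjusted p = 0.0153). Celf1 had ratios of 0.817, 0.720, 0.921 and 0.873 in O4+ cells, against 1.10, 1.00, 1.27, 1.11 and 1.06 in A2B5+ cells, and fell by 0.41 ± 0.12 (adjusted p = 0.0205). Neither overlapped between the populations. The Celf1 call was lost without O4+ replicate 1 (adjusted p = 0.0502). Celf5 had a difference of -0.78 ± 0.43 (adjusted p = 0.158), with A2B5+ ratios from 0.585 in replicate 5 to 3.20 in replicate 3, and was called without A2B5+ replicate 5 at -1.13 (adjusted p = 0.0161). Celf3 differed by -0.20 ± 0.12 (adjusted p = 0.202).

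Several of these genes are also expressed by neurons, and markers of neurons and of other cell types were examined beside them. Of 12 tested neuron markers 7 were lower and 3 higher in O4+ cells, and their mean log2 ratio on array A ranged from -0.718 to -0.333 over O4+ arrays and from -0.228 to 1.13 over A2B5+ arrays. Among A2B5+ arrays this mean was highest in replicates 3 and 4, at 1.13 and 0.945, where Elavl2 and Celf2 were also highest, and lowest in replicate 5, at -0.228, where Elavl2, Celf2 and Celf5 were lowest. Astrocyte markers had the same order, at 0.99 and 0.832 in replicates 3 and 4 and -0.0894 in replicate 5, and progenitor markers were also lowest in replicate 5, at -0.099. The other genes called lower shared the order of the neuron markers in part or not at all. Celf1 was highest in replicates 3 and 4, at 1.27 and 1.11, but lowest in replicate 2. Srsf3 was also highest in replicates 3 and 4, at 2.58 and 1.95, but lowest in replicate 1. Rbfox2 was lowest in replicate 5, at 1.00, but highest in replicate 1. Rbfox1 was highest in replicate 1 (1.90) and lowest in replicate 4 (1.04). Srsf4 was highest in replicate 2 and lowest in replicate 4. Mbnl1 was lowest in replicate 1, at 1.00, and at 1.63 in replicate 5. All 8 markers of dividing cells were lower too, with means from -1.75 to -1.08 over O4+ arrays and from 0.177 to 0.527 over A2B5+ arrays on array A. Of 7 astrocyte markers 5 were lower, with means from -0.84 to -0.24 over O4+ arrays and from -0.0894 to 0.99 over A2B5+ arrays. All 7 endothelial markers were lower, with a median difference of -2.03, and 6 of 7 microglia markers were lower, with a median of -1.42, against medians of -1.47 for neuron and -0.82 for astrocyte markers. The ratios hold no level, so whether a defining marker was absent from a population cannot be read from them. The part of other cell types in the differences of the splicing regulators was not tested.

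The STAR proteins Khdrbs2 and Khdrbs3 were higher in O4+ cells. They are relatives of Sam68, the product of Khdrbs1, and are known for splicing of neurexin transcripts in neurons. Khdrbs2 (SLM1) had ratios of 1.25, 1.84, 1.71 and 1.495 in O4+ cells, against 0.963, 0.657, 0.745, 1.00 and 0.981 in A2B5+ cells. All O4+ replicates lay above the A2B5+ replicates, and Khdrbs2 rose by 0.86 ± 0.175, or 1.82-fold (adjusted p = 0.00328). Khdrbs3 (SLM2) had ratios of 1.30, 0.994, 1.16 and 1.26 in O4+ cells, against 1.00, 0.763, 1.04, 0.862 and 0.901 in A2B5+ cells, which overlapped. It rose by 0.37 ± 0.14 (adjusted p = 0.0465), but the call was kept in only 2 of 9 fits that left out a replicate, was lost with arrays centred (adjusted p = 0.286), and its probe set on array B differed by -0.10. Its single array A probe set was not called in the fit of array A probe sets (adjusted p = 0.053). Khdrbs1 differed by 0.13 ± 0.13 (adjusted p = 0.427). Qki, whose loss causes the dysmyelination of the quaking mouse, had 1 probe set, on array B, that lay below the filter. Its ratios were 0.954, 0.930, 0.929 and 1.16 in O4+ cells, against 0.839, 0.839, 0.764, 0.826 and 1.083 in A2B5+ cells, and it was not tested. Mbnl3, Nova2 and Srsf7 also had no probe set above the filter.

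**Figure D2:**
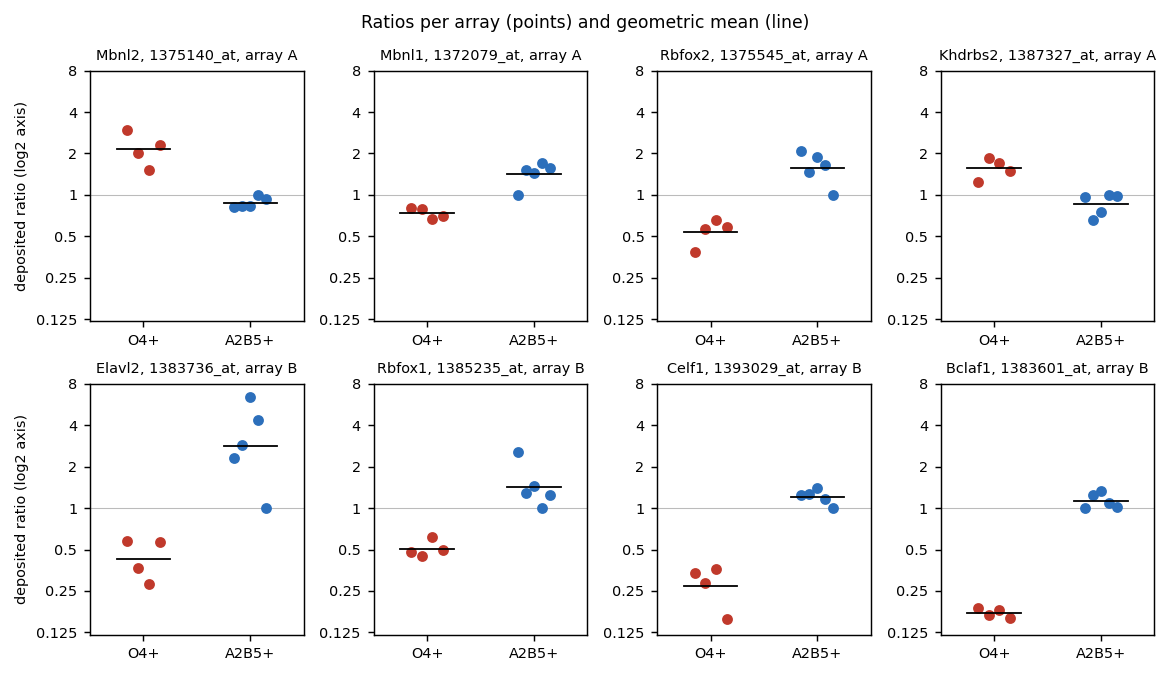
Deposited ratio on each array, on a log2 axis, for the probe set with the smallest adjusted p of each of 8 genes, with O4+ replicates left and A2B5+ replicates right and the geometric mean as a line. The populations do not overlap in any of the 8 panels, and O4+ cells are higher for Mbnl2 and Khdrbs2 and lower for the others.

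Of 9 tested SR proteins, which bind exonic enhancers, 1 was higher and 2 lower, where 28.8% of all genes were higher and 17.8% lower, and their median difference was 0.21. Srsf2 (SC35) had ratios of 1.13, 1.13, 1.49 and 1.22 in O4+ cells, against 1.00, 0.839, 1.05, 0.996 and 0.847 in A2B5+ cells, and rose by 0.39 ± 0.13 (adjusted p = 0.036). With arrays centred, Srsf2 was no longer called (0.22, adjusted p = 0.216), and the call was kept in 4 of 9 fits that left out a replicate. Srsf3 (SRp20) had ratios of 0.429, 0.659, 0.655 and 1.099 in O4+ cells, against 0.745, 1.59, 2.58, 1.95 and 1.00 in A2B5+ cells, with overlap. It fell by 1.09 ± 0.38 (adjusted p = 0.0396). Srsf4 (SRp75) had ratios of 0.687, 1.00, 0.853 and 0.674 in O4+ cells, against 1.21, 1.335, 1.13, 0.839 and 1.14 in A2B5+ cells, also with overlap, and fell by 0.49 ± 0.17 (adjusted p = 0.0395). The calls of Srsf3 and Srsf4 were kept in 3 and 2 of 9 fits that left out a replicate. Each rests on 1 array B probe set, which was not called in the fit of array B probe sets (adjusted p = 0.0799 for Srsf3 and 0.0625 for Srsf4). Srsf1 (SF2), the founding SR protein, differed by -0.18 ± 0.17 (adjusted p = 0.391).

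None of the 18 tested hnRNP genes was called by limma, and 0 of them had an unadjusted p under 0.05, although 1 of the 3 Hnrnpu probe sets was called higher on its own (0.42). Their differences lay between -0.38 (Hnrnpd) and 0.24 (Hnrnpdl), with a median of -0.13. Hnrnpa2b1, which carries Mbp mRNA into oligodendrocyte processes, had ratios of 1.18, 0.766, 0.988 and 1.19 in O4+ cells, against 1.04, 1.05, 1.19, 1.19 and 0.841 in A2B5+ cells. Its difference was -0.05 ± 0.17 (adjusted p = 0.806; 95% interval -0.43 to 0.32). Hnrnpa1, a repressor of exons, differed by 0.12 ± 0.12 (adjusted p = 0.419; 95% interval -0.14 to 0.39). Hnrnpf and Hnrnph1, which bind G-rich elements in pre-mRNA, differed by -0.24 ± 0.20 and -0.30 ± 0.27 (adjusted p = 0.342 and 0.372). For Hnrnph1, O4+ replicate 2 was at 0.495 while the other O4+ replicates were between 0.954 and 1.12, and the difference was -0.03 without it. With arrays centred, Hnrnph3 was called lower at -0.52 (adjusted p = 0.0373), and no other hnRNP was called.

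Among the polypyrimidine tract proteins and the U2 snRNP subunits, only Sf3b6 was called. Ptbp1, which represses neuronal exons outside neurons, had ratios of 0.864, 0.722, 1.075 and 0.732 in O4+ cells, against 0.908, 1.12, 1.13, 1.135 and 1.00 in A2B5+ cells. Its difference of -0.33 ± 0.15 was not called (adjusted p = 0.0906), but was at -0.50 with arrays centred (adjusted p = 0.0252). Ptbp2, its counterpart in neurons, and Ptbp3 differed by 0.15 ± 0.26 and -0.02 ± 0.16 (adjusted p = 0.653 and 0.935). Of 9 Sf3a and Sf3b genes, which recognise the branch site, 1 was called: Sf3b6 had ratios of 1.24, 1.21, 1.19 and 1.12 in O4+ cells, against 0.964, 0.843, 0.961, 1.00 and 0.833 in A2B5+ cells. Sf3b6 rose by 0.37 ± 0.11 (adjusted p = 0.0188), a call lost with arrays centred (0.20, adjusted p = 0.152). Sf3b3 differed by -0.26 and was not called (adjusted p = 0.122), but was called lower at -0.43 with arrays centred (adjusted p = 0.0309). Tra2a and Tra2b, which resemble SR proteins, differed by 0.22 ± 0.24 and -0.03 ± 0.11 (adjusted p = 0.47 and 0.848).

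Where a gene had several probe sets, they did not always move together. The sequences of the probes and their places in the transcripts were not used here. A within-gene F test (limma diffSplice, Benjamini-Hochberg adjusted within an array type) asked whether the O4+ minus A2B5+ differences of a gene's probe sets were unequal. On array B, 5 of 7 splicing regulators with several tested probe sets were called (71.4%, where 15.4% of all 988 such genes were called), namely Celf1, Rbfox1, Elavl2, Mbnl1 and Srsf10. On array A, 1 of 20 was called (5%, against 14% of all 1290 such genes), namely Celf2.

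For Celf1 on array B (adjusted p = 2.06e-06), probe set 1393029_at had ratios of 0.336, 0.285, 0.360 and 0.157 in O4+ cells, against 1.25, 1.265, 1.41, 1.16 and 1.00 in A2B5+ cells. It fell by 2.16 ± 0.24, or 4.46-fold, while the other two Celf1 probe sets on that array differed by 0.06 and 0.0016. For Elavl2 (adjusted p = 0.00472), probe sets 1383736_at and 1383768_at differed by -2.73 and -2.815, both called, and 1381677_at differed by 0.19. For Rbfox1 (adjusted p = 0.0043), 1385235_at and 1383257_at differed by -1.496 and -1.42, both called, while 1383130_at differed by -0.46 and 1380516_at by 0.36, neither called. For Celf2 on array A (adjusted p = 0.00426), 1389867_at and 1388195_at differed by -2.00 and -1.13, both called, while 1387880_at and 1387879_a_at differed by 0.27 and 0.01. The calls of these 4 genes were kept in all 9 fits that left out a replicate.

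The calls of Mbnl1 and Srsf10 were less stable, kept in 4 and 2 of those 9 fits. For Mbnl1 (adjusted p = 0.0267), 1382463_at fell by 0.74 and 1380213_at differed by 0.23, while its probe sets on array A, 1385933_at and 1372079_at, differed by -1.35 and -0.95, both called. For Srsf10 (adjusted p = 0.0343), neither 1382052_at (-1.13 ± 0.36) nor 1386071_at (0.11) was called on its own, and the 2 tested probe sets on array A gave a mean of 0.30 ± 0.12 (adjusted p = 0.058). No gene had 1 probe set called higher and another called lower.

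Array types disagreed for Bclaf1 and Rbfox2. Bclaf1, which binds RNA and takes part in splicing and in transcription, differed by only -0.08 ± 0.15 on array A (adjusted p = 0.673). On array B, 1383601_at had ratios of 0.188, 0.167, 0.182 and 0.160 in O4+ cells, against 1.00, 1.25, 1.34, 1.085 and 1.015 in A2B5+ cells, and fell by 2.70 ± 0.11, or 6.50-fold (adjusted p = 2.22e-06 over array B). The second Bclaf1 probe set there, 1394359_at, fell by 1.88 ± 0.24 (adjusted p = 7.66e-04). Rbfox2 showed the reverse order of types: 1375545_at on array A fell by 1.54, and 1385281_at on array B differed by -0.01. Among probe sets of splicing regulators, 7 of 74 were called higher and 6 lower on array A (9.46% and 8.11%, against 32.5% and 14.7% of all probe sets), and 0 of 34 were called higher and 8 lower on array B (0% and 23.5%, against 9.93% and 13.8%). O4+ and A2B5+ ratios were fully separate at 17 of 74 array A probe sets (23%, against 44% of all) and at 9 of 34 array B probe sets (26.5%, against 25.6% of all).

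**Figure D3:**
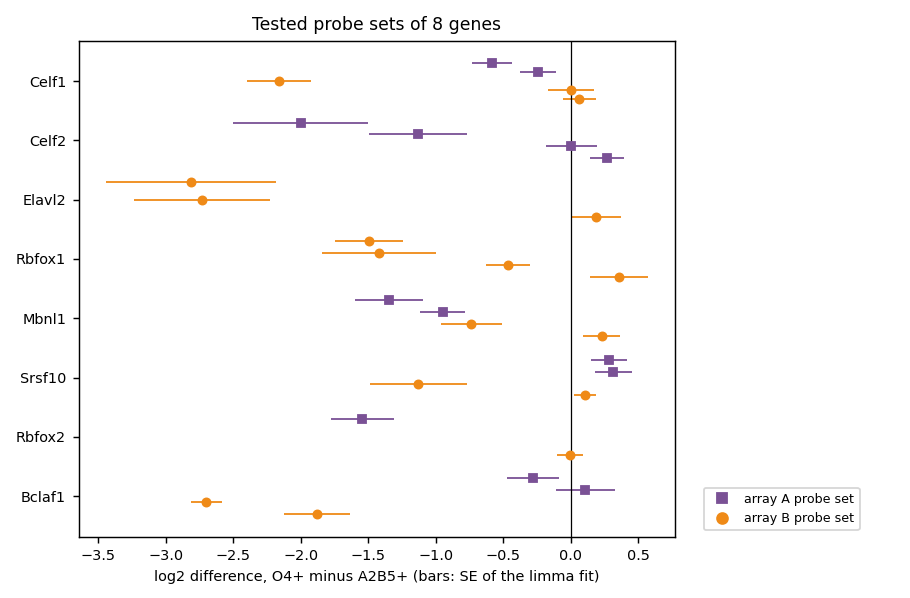
Log2 difference, O4+ minus A2B5+, of each tested probe set of 8 genes, with bars for the limma standard error, squares for array A and circles for array B. In Celf1, Celf2, Elavl2, Rbfox1 and Mbnl1 some probe sets fall by 0.58 or more while others lie between -0.46 and 0.36, and the Bclaf1 probe sets fall on array B alone.

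The spread of a probe set over the arrays is given beside these contrasts. Probe sets with a median ratio under 1 share a common pattern over the arrays. After it was subtracted, the median residual SD of such probe sets was 0.065 (array A) and 0.061 (array B). For probe sets with a median of 1 it was 0.39 and 0.35. The 95th percentile of the low probe sets was 0.36 and 0.33, so the ranges overlap. On array A, 1390594_at of Rbfox1, 1387880_at of Celf2, 1372810_at of Hnrnpdl and 1388614_at of Sf3b2 differed by 0.23, 0.27, 0.21 and 0.27. Their residual SDs were only 0.065, 0.065, 0.07 and 0.095, so the subtracted pattern itself held a shift between the populations there. Sf3b6, Khdrbs3 and Srsf2 rose by 0.37, 0.37 and 0.39 on that array, and the part of the pattern in those rises was not tested. Some probe sets of the genes with unequal probe sets or array types were not called on their own. Of those, the residual SD was 0.065 for 1387880_at of Celf2, 0.075 for 1386071_at of Srsf10 and 0.11 for 1385281_at of Rbfox2. These values are close to that of the low probe sets. Before the pattern was subtracted, all O4+ ratios of 1387880_at lay above its A2B5+ ratios. The residual SD was 0.28 for 1381677_at of Elavl2, 0.30 for 1387879_a_at of Celf2, 0.35 for 1380516_at of Rbfox1 and 0.20 for 1380213_at of Mbnl1. For the Celf1 probe sets on array B that differed by 0.06 and 0.0016 it was 0.16 and 0.24. Of these only the Rbfox1 value lies above the 95th percentile of low probe sets of its array type. Other probe sets not called lay above it too, on array A 1373868_at (0.43) and 1388752_at (0.39) of Bclaf1. On array B so did 1383130_at of Rbfox1 (0.36) and 1382052_at of Srsf10 (0.84). Below it on array A lay 1371900_at of Celf1 (0.34) and 1392868_at and 1393946_at of Srsf10 (0.12 and 0.19). Whether a probe set that was not called measured its gene at all was not tested. For 1383601_at of Bclaf1 the residual SD within O4+ arrays was 0.10, against 0.21 within A2B5+ arrays.

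Arrays differed in their splicing regulator ratios beyond the populations. On array A, O4+ replicate 2 had a median log2 ratio of -0.232 over the 74 probe sets of splicing regulators but 0.163 over all tested probe sets, and it was the lowest of the 4 O4+ arrays for 39 of the 74, where it was lowest for 31% of all probe sets. The medians of the other O4+ arrays were 0.0377, 0.0356 and 0.109 over the splicing regulators. On array B, O4+ replicate 4 had a median of -0.357 over 34 probe sets, against -0.0978 to -0.00289 in the other O4+ arrays and 0.00646 to 0.223 in A2B5+ arrays. Its median over all tested probe sets was -0.013. It was the lowest O4+ array for 14 of the 34, and for 42.4% of all tested probe sets. It was also the highest O4+ array for 12 of the 34, more than any other O4+ array of that type. On 100 probe sets that both types share, deviations of O4+ replicate 2 on array A correlated best with O4+ replicate 4 on array B (r = 0.937, and -0.80 with the array of its own number, across probe sets), while every A2B5+ array matched its own number. None of the 4 O4+ arrays matched its own number: array A replicates 1, 3 and 4 matched array B replicates 3, 1 and 2 (r = 0.836, 0.801 and 0.886). A gene's value comes from 1 array type, but a count without an O4+ replicate number may leave out different samples on the 2 types. Without this pair of arrays, 8 splicing regulators were called higher and 7 lower, including all 5 and 7 of the 8 called with all arrays, and Srsf4 was the call lost (adjusted p = 0.0884).

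**Figure D4:**
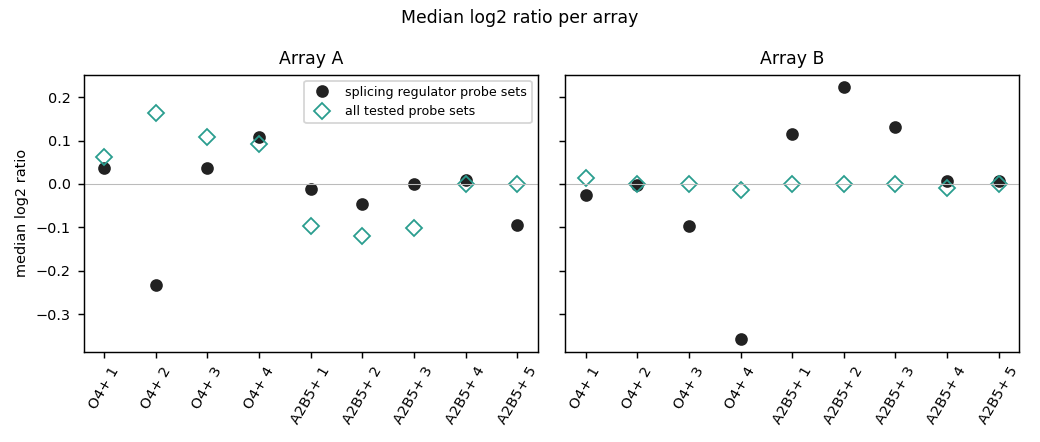
Median log2 ratio per array over the probe sets of splicing regulators (filled circles, 74 of type A and 34 of type B) and over all tested probe sets (open diamonds), O4+ arrays left of A2B5+ arrays. O4+ replicate 2 on array A and O4+ replicate 4 on array B have the lowest splicing regulator medians of their array type.

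Other genes of RNA processing were counted from lists named by function, to be read against the 28.8% of all genes called higher and 17.8% called lower. Of 30 core spliceosome genes 1 was higher and 1 lower: Snrpd1, an Sm protein, rose by 1.69 ± 0.18, and Snrpf, another, fell by 0.47 ± 0.16. Of 17 SR protein kinases, exon junction and SR-related genes, 3 were higher and 1 lower. Srpk1 and Srpk2, kinases that phosphorylate SR proteins in the cytoplasm, rose by 1.155 ± 0.20 and 1.235 ± 0.22, Eif4a3 of the exon junction complex rose by 0.42 ± 0.11, and Clk4, a nuclear SR protein kinase, fell by 0.53 ± 0.16. The call of Eif4a3 was lost with arrays centred (adjusted p = 0.066).

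Of 21 genes of mRNA transport, stability and translation, 3 were higher and 5 lower. Igf2bp2, which binds and protects mRNAs, rose by 1.69 ± 0.19, and Fxr1 and Fxr2, relatives of the fragile X protein, rose by 0.58 ± 0.21 and 0.56 ± 0.15, though the call of Fxr1 (adjusted p = 0.047) was lost with arrays centred (adjusted p = 0.154). The largest falls were those of Zfp36l1 and Zfp36, which drive decay of AU-rich mRNAs, at -1.32 ± 0.15 and -1.02 ± 0.36, and of Ckap5 at -0.68 ± 0.15. Of 25 other RNA-binding proteins 5 were higher and 7 lower. Pcbp4 and Pcbp1, poly(C)-binding proteins, rose by 2.45 ± 0.37 and 0.52 ± 0.11, and Elavl3, a neuronal relative of Elavl2, rose by 1.36 ± 0.24. The largest falls in that list were Elavl4 at -2.19 ± 0.67, Celf4 at -1.90 ± 0.59 and Pcbp3 at -1.195 ± 0.23. With arrays centred the 4 lists had 1, 2, 2 and 3 genes higher and 1, 2, 5 and 9 lower, where 18.7% of all genes were higher and 20.4% lower. Among 5 tested transcripts known from other work to be bound or spliced by these proteins in glia, Mag, Mbp, Nfasc and Map1b were higher, the last by 0.62 ± 0.16, and Cdkn1b fell by 0.53 ± 0.17.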

How the data were processed

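The values are linear ratios per probe set as the authors deposited them, with GCRMA named in the submitters' processing notes; the step that turned its output into ratios is not described there. Across the 9 arrays, 12995 of the 15923 array A probe sets and 11050 of the 15333 array B probe sets had a median ratio of 1; the rest had a lower median. The log2 ratio was used without a pseudocount or further normalization. Control probe sets were left out, and testing required a ratio of 1 or more on 4 or more arrays, which 13098 and 11136 probe sets met. All 108 tested probe sets of splicing regulators had such ratios on exactly 5 arrays, and the 13 not tested on 0 to 3. Those 5 were all A2B5+ arrays for 1372079_at, 1385933_at and 1382463_at of Mbnl1 and 1375545_at of Rbfox2. The same held for 1383736_at and 1383768_at of Elavl2, 1388704_at and 1393029_at of Celf1 and 1389867_at of Celf2. It held also for 1383130_at, 1383257_at and 1385235_at of Rbfox1 and 1383601_at and 1394359_at of Bclaf1. These passed the filter only through the population in which they were higher. Symbols came from the platform annotation, and all 121 probe sets matched the reference gene table by gene identifier. Of probe sets that name a splicing regulator and another gene, 4 of type A and 1 of type B were left aside.

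The populations were compared by limma 3.58.1 (R 4.3.3), using lmFit, eBayes and, within genes, diffSplice, with two-sided tests, on 11982 gene rows and per array type, with p-values adjusted by Benjamini-Hochberg. The gene-level fit and the within-gene test were tested on simulated data. The genes and lists were chosen with earlier results of these data known. Named were the 3 largest called rises and falls per family, all tested genes of families with 4 or fewer, and genes with known roles in glia or neurons. Hnrnpd, Hnrnpdl, Hnrnph3, Hnrnpu, Sf3b2, Sf3b3 and Srsf10 were named after their values were seen. Probe sets were also fitted singly, and residual patterns and the pair of O4+ arrays left out were chosen after seeing the data. The labels give no array batch, litters shared between populations were not stated, and the number of arrays limits the precision.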

Additional observations from a re-analysis of the deposited data

Results flagged for a closer look

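Among the 28 named genes, 56 groups of replicates were examined for an array far from the others of its population, and 3 were found; chance gives about 1 in 20. Mbnl1 had a ratio of 0.485 in O4+ replicate 3, against 0.683 to 0.731 in the other O4+ replicates, and without that replicate fell by 1.01. Celf5 had 0.663 in O4+ replicate 1, against 0.976 to 1.00 in the others. Rbfox1 had 0.750 in O4+ replicate 2, against 0.799 to 0.808 in the others.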

How the results depend on the processing

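Main counts were 5 higher, 8 lower and 6 genes with unequal probe sets. The higher count was 2 with arrays centred on their medians, 2 with the replicate number as a block, and 8 without O4+ array 2 of type A and array 4 of type B. Leaving out each replicate gave 3 to 8 higher, 5 to 8 lower and 4 to 6 genes with unequal probe sets. Mbnl2, Khdrbs2, Mbnl1, Rbfox1, Rbfox2, Elavl2 and Celf2 were called in all 9 of these fits. The replicate numbers were not taken to pair the samples, and the block on them gave 9 lower. Same-numbered O4+ and A2B5+ arrays deviated together with correlations of 0.0196 to 0.305 (type A) and -0.198 to 0.237 (type B). The O4+ numbers disagree between the types, and which type is misnumbered cannot be told. With array B used before array A, Khdrbs3 turned to -0.10, Mbnl1 and Rbfox2 were no longer called (-0.25 and -0.01), and Bclaf1 was called at -2.29. With no filter Rbfox1 turned to 0.23, since a probe set on array A below the filter then stood for it. With array weights 7 were higher and 12 lower. The median of probe sets gave the same genes, all 5 and 8. A median ratio of at least 1 as the filter also did. That filter keeps the same probe sets of splicing regulators as the main filter, so it was not a separate check.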
